A study of Mus musculus with 4 samples.

Results

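A set of 9 nerve cell genes was followed in tumor-associated macrophage (TAM) preparations: the neurotrophin receptors *Ngfr*, *Ntrk2* and *Ntrk3*, and *Stmn2*, *Tubb3*, *Gap43*, *Uchl1*, *Nefl* and *Nefm*, which serve the cytoskeleton, growth cone or protein turnover of neurons. The 9 genes were chosen by symbol and are 9 of the 54532 Ensembl genes in the count table. The study asked how loss of the kinase Syk in myeloid cells alters TAMs of neuroblastoma. NB9464 cells, a mouse neuroblastoma line with amplified *MYCN*, were implanted under the skin of mice of the C57BL/6 background, 4 to 6 weeks old at implantation, and the tumors were taken on day 40. One group of 2 libraries (M7 and M8) is labelled SYK WT and the other group of 2 (M9 and M10) SYK KO. The KO mice carry floxed *Syk* and Cre recombinase driven by the lysozyme M gene, so that deletion is meant for myeloid cells and spares the gene in other cells. By immunoblot the study found Syk protein in TAMs and B cells, minimal amounts in T cells and none in NB9464 cells. All 4 libraries share the NB9464 implant, and the labels state that no treatment was given. The series title names an adoptive transfer, which the sample labels do not describe, and the labels name both TAMs and bone marrow-derived macrophages as RNA source. TAMs were enriched on magnetic columns by CD11b and F4/80, marks of myeloid cells and macrophages, and their polyA RNA was sequenced. The p-values test the label difference against spread between these libraries, which is in part estimated over all genes. The labels do not say how many mice went into a library, so whether this is spread between mice is not known.

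Neurotrophins are secreted growth factors that keep neurons alive and guide their axons. BDNF and neurotrophin-4 act through the tyrosine kinase TrkB (*Ntrk2*) and neurotrophin-3 acts through TrkC (*Ntrk3*), while p75NTR (*Ngfr*) binds all neurotrophins and their precursors. In neuroblastoma, a tumor of the sympathetic lineage, TrkB is known from aggressive tumors. The other genes are textbook marks of neuronal differentiation: *Tubb3* encodes neuronal beta-III tubulin, *Stmn2* a microtubule-destabilizing stathmin, *Gap43* a growth cone membrane protein, *Uchl1* the deubiquitinating enzyme PGP9.5, and *Nefl* and *Nefm* the light and medium neurofilament chains.

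The promoters of the members that passed the test in opposite directions, *Uchl1* and *Ngfr*, are shown because these genes are the called members. RefSeq promoters on GRCm38.p6 matched 4 of the 9 members. The stretches run from 250 to 51 bases before the RefSeq start, at chr5:66675871-66676070 (plus strand) for *Uchl1* and chr11:95587749-95587948 (minus strand) for *Ngfr*. Capitals mark the GC box GGGCGG, searched on both strands.
Uchl1: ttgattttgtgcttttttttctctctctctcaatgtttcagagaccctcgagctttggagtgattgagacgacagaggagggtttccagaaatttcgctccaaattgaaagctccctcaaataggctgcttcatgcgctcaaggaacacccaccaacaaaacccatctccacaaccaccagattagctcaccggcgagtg
Ngfr: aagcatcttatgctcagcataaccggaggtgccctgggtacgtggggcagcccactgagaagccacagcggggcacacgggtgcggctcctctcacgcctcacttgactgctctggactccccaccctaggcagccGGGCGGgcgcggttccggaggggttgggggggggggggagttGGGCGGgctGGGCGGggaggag
The *Ngfr* stretch was 70% G and C, above 91.4% of the 32851 promoters of this length, and held 3 GC boxes, a motif present in 24.6% of them. The *Uchl1* stretch was 47% G and C, above 32.6% of promoters, and held 0 GC boxes. Neither stretch held the letters TATAAA of the TATA box, found in 9.14% of promoter stretches of this length. Bases nearer the start, where a TATA box lies, were not searched, so this cannot show whether either promoter has one. The hypoxia response element core ACGTG occurred at 1 place in *Ngfr* and 0 in *Uchl1*, against 12.9% of promoters with at least 1. These matches describe letters only and were not related to the expression values.

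Libraries held between 20755886 and 23518045 counts. Values are given as CPM, the usual count scaled by library total, with the total corrected by edgeR's TMM factors, and the smallest signal taken as detectable, 3 counts, was 0.109 to 0.163 CPM. This floor and the intervals below cover counting error only. Mitochondrial genes took 2.20% and 2.34% of counts in the WT-labelled libraries and 6.00% and 15.9% in the KO-labelled ones. *Syk* was 25.5 ± 3.35 CPM (SD, n = 2) with the WT label and 178 ± 24.99 CPM (SD, n = 2) with the KO label, opposite to the labels (log2 fold change 2.80, and 0.07 when scaled to macrophage markers), so directions below refer to the label a library carries. The labelled cell type was checked against 10 macrophage markers, whose summed level was 916 to 1293 CPM in the WT-labelled libraries and 6218 to 10362 CPM in the KO-labelled libraries. The 8 fibroblast markers summed to 12536 to 14429 CPM with the WT label and 4056 to 4954 CPM with the KO label. In M7 and M8 this sum exceeded that of the macrophage markers. Most of it was *Col1a1* (5656 and 6634 CPM) and *Col3a1* (6152 and 7110 CPM), so the list sums do not rank the cell types. In such bulk RNA, fewer cells of a type and less RNA per cell cannot be told apart.

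*Uchl1* dominated the 9 genes and fell in the KO-labelled libraries, and *Ngfr* rose from a low level. *Tubb3* was next in level after *Uchl1*, while *Ntrk2*, *Ntrk3*, *Stmn2*, *Gap43*, *Nefl* and *Nefm* were scarce throughout. Of the 9 members, 6 passed the expression filter. Of these 6, 1 was higher with the KO label by edgeR's quasi-likelihood test, against 22.7% of all 16451 genes tested, and 1 was lower, against 16.7% (either direction, 2 of 6 against 39.4%). Both KO-labelled libraries lay above both WT-labelled libraries for *Ngfr* alone (38.0% of all genes tested) and below them for *Uchl1* and *Gap43* (37.2%), *Gap43* being below the expression filter. Members not tested were *Gap43*, *Nefl* and *Nefm*. The median log2 fold change of the 6 tested was -0.22, beside 0.02 over all genes. With so few members these counts are near the background.

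**Figure D1:**
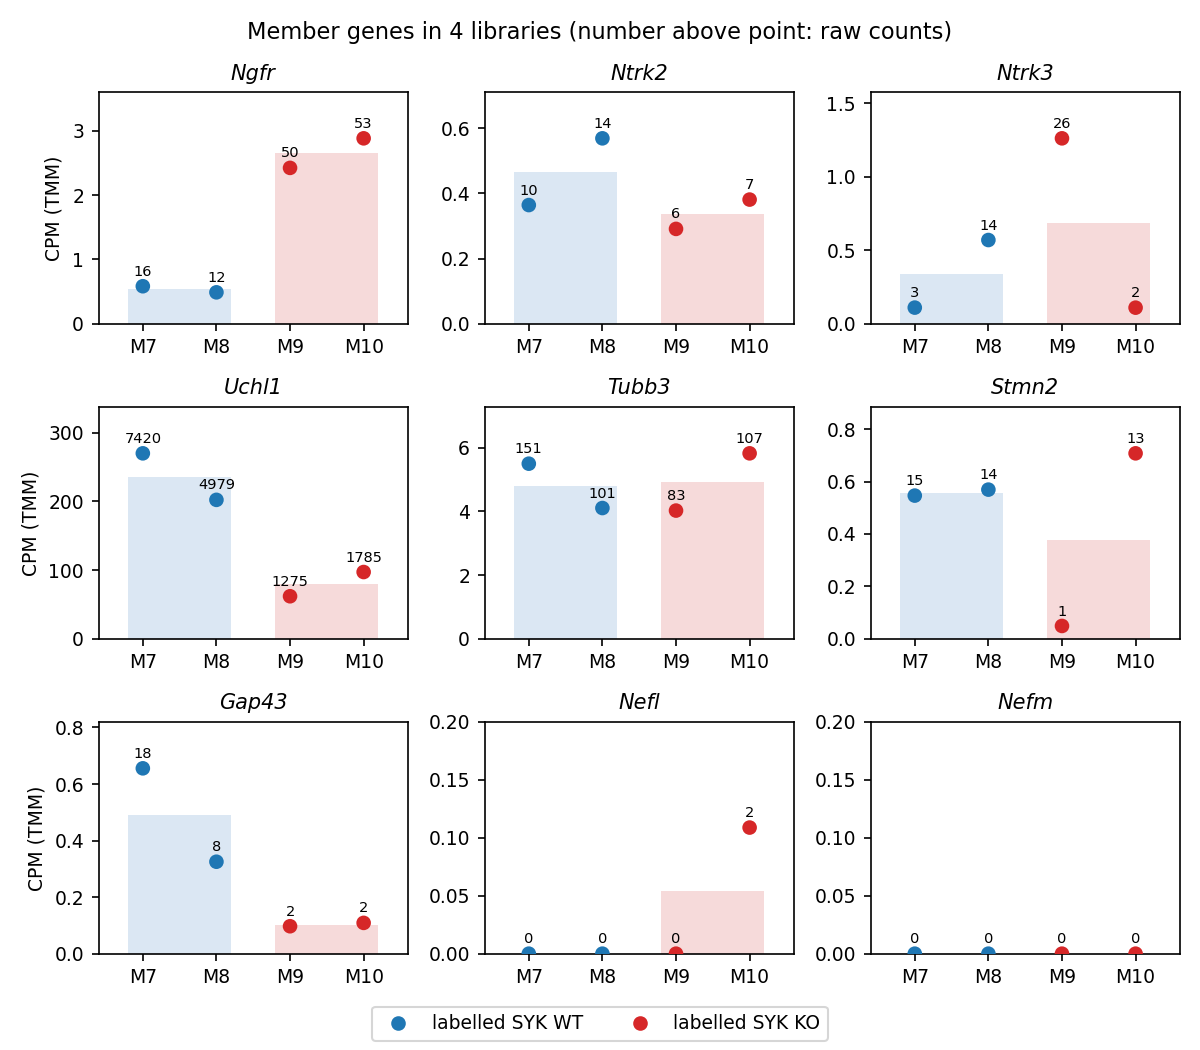
Each panel plots 1 member: points are CPM (TMM-normalized, linear axis from 0) in libraries M7 and M8 (labelled SYK WT, blue) and M9 and M10 (labelled SYK KO, red), bars are group means of 2 libraries, and the number above a point is its raw count. *Uchl1* was at 61.8 CPM or more in every library, *Ngfr* separated the labels in the opposite direction, and *Nefl* and *Nefm* had at most 2 counts.

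*Uchl1* (ENSMUSG00000029223, chromosome 5, 66676091 to 66687234 on GRCm38) had 7420 and 4979 counts under the WT label (M7, M8) and 1275 and 1785 under the KO label (M9, M10), or 270, 202, 61.8 and 97.2 CPM. The lower WT-labelled library was above the higher KO-labelled library by a factor larger than the difference within either label. It fell by 1.57 log2 units (standard error, SE, 0.268, adjusted p = 0.00648), from 236 ± 48.0 to 79.5 ± 24.98 CPM (SD, n = 2 per label). *Uchl1* took 97.2% and 96.8% of the summed CPM of the 9 members in M7 and M8, and 88.4% and 90.6% in M9 and M10. When 1 library at a time was dropped, the value stayed between -1.92 and -1.35, and the adjusted p was at most 0.0156.

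*Uchl1* fell under the KO label, as did many stromal markers. Of the 8 fibroblast markers 5 fell (median log2 fold change -1.44 over 8), against 16.7% of all genes. Of 8 pericyte and smooth muscle markers 6 fell (median -1.54 over 8), against the same 16.7% of all genes. The latter summed to 614 to 616 CPM under the WT label and 156 to 193 CPM under the KO label. Among 111 other listed genes, the patterns nearest to *Uchl1* over the 4 libraries were those of *Acta2*, the smooth muscle actin (root mean square difference of centred log2 CPM 0.10), and *Col1a2*, a type I collagen chain (0.15). With 4 libraries and 111 genes to choose from, these matches cannot show that the genes vary together. Per 100 counts of the 8 fibroblast markers, most of them *Col1a1* and *Col3a1*, there were 2.16 and 1.403 *Uchl1* counts in M7 and M8. In M9 and M10 there were 1.52 and 1.96. This value is free of library scaling, and the labels overlapped. Scaled to the fibroblast markers, the log2 fold change of *Uchl1* was -0.53 and did not pass the test (adjusted p = 0.158), with the median of all genes at 1.10 under that scaling.

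**Figure D2:**
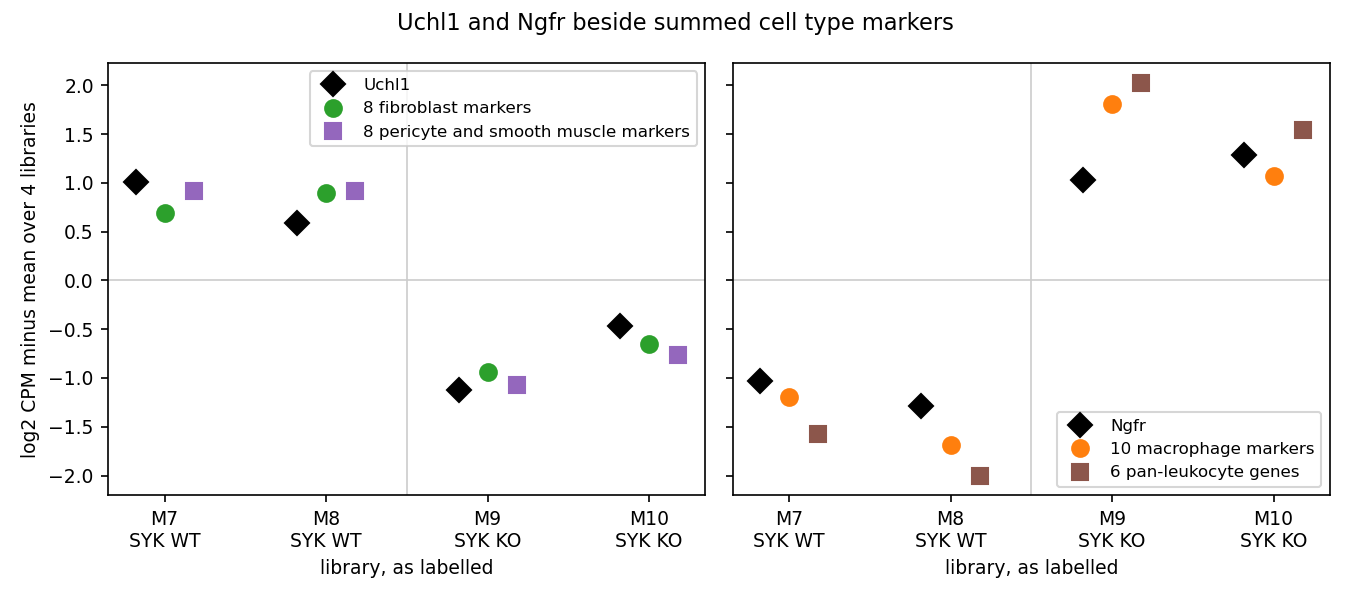
The log2 CPM of *Uchl1* (left) and *Ngfr* (right) in each library, minus the mean over the 4 libraries, is drawn beside the summed CPM of marker lists treated in the same way. *Uchl1* lies with the fibroblast and the pericyte and smooth muscle markers above 0 in M7 and M8, and *Ngfr* lies with the macrophage and pan-leukocyte genes above 0 in M9 and M10.

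The other ubiquitin C-terminal hydrolases were compared with it. Of these 3 relatives 2 rose (22.7% of all genes did) and 1 fell (16.7% of all genes). *Uchl3* was 11.4 and 8.25 CPM in M7 and M8, and 28.8 and 23.1 CPM in M9 and M10. It rose by a log2 fold change of 1.401 (SE 0.249, adjusted p = 0.00740), although scaled to the macrophage markers the value was -1.32, and without M8 the call was lost (adjusted p = 0.0598). *Uchl5*, a deubiquitinase that docks on the proteasome, rose by 1.14 (adjusted p = 0.00344) and turned to -1.59 under the same scaling. The chromatin deubiquitinase *Bap1* fell by 0.51 on the log2 scale (adjusted p = 0.0315), with 0.57 under the fibroblast scaling, and the call was lost without M7 (adjusted p = 0.232) and without M8 (0.272). The ratio of *Uchl1* to *Uchl3* counts, free of any scaling, was 23.7 and 24.5 in M7 and M8 but 2.15 and 4.20 in M9 and M10. *Uchl1* thus made up 70.5% (95% exact binomial interval 69.6 to 71.3) and 64.3% (63.3 to 65.4) of the counts of the 4 hydrolases in M7 and M8, and 32.0% (30.5 to 33.4) and 43.9% (42.4 to 45.4) in M9 and M10. An antisense gene, *Uchl1os*, overlaps 295 of the 1632 exon bases of *Uchl1*, and whether the counting used strand is not given in the sources used here.

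*Ngfr* (ENSMUSG00000000120, chromosome 11, 95568818 to 95587735) rose under the KO label. It had 16 and 12 counts in M7 and M8, and 50 and 53 in M9 and M10, which is 0.583, 0.488, 2.42 and 2.88 CPM. The 2 KO-labelled libraries were close to each other and both stood above the WT-labelled ones. The log2 fold change was 2.30 (SE 0.549, adjusted p = 0.0194). The ratio of the summed counts, corrected for library total, was 4.91 (95% counting interval 3.21 to 7.75). The call rested on few counts and was lost without M7 (adjusted p = 0.170) and without M8 (adjusted p = 0.231), with log2 fold changes of 2.43 and 2.17. All 10 macrophage markers rose as well (median log2 fold change 2.82), and so did all 6 pan-leukocyte genes (median 3.57), against 22.7% of all genes. Per 10000 counts of the macrophage markers there were 4.51 and 5.33 *Ngfr* counts in M7 and M8 and 2.34 and 4.64 in M9 and M10, values that overlapped between labels. Scaled to those markers, the log2 fold change of *Ngfr* was -0.37 (adjusted p = 0.741), with the median of all genes at -2.70. Its nearest patterns among the listed genes were *Stmn1* (0.33) and *Gata3* (0.35), a transcription factor of T cells and of sympathetic neurons. Picked from 111 genes over 4 libraries, these matches cannot show that the genes vary together.

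*Ntrk2* (chromosome 13, 58806569 to 59133970) was near the floor, with 10 and 14 counts in M7 and M8 and 6 and 7 in M9 and M10, a ratio of KO-labelled to WT-labelled libraries of 0.723 (95% counting interval 0.338 to 1.48) and a log2 fold change of -0.47 that missed the threshold (adjusted p = 0.656), though it passed at -3.19 with the macrophage scaling (0.0159). *Ntrk3* (chromosome 7, 78175959 to 78738012) had 3, 14, 26 and 2 counts in the same order. The highest and the lowest of its libraries carried the same label, and the log2 fold change of 1.03 was smaller than its standard error of 1.24 (adjusted p = 0.540). Leaving out M9 turned it to -1.66. No difference of either Trk gene was detectable at this depth. The nearest pattern to *Ntrk2* was that of *Ntf3* (0.07), a neurotrophin gene, followed by the proteoglycan gene *Lum* (0.13). With 6 to 14 counts of *Ntrk2* in a library and 111 genes to choose from, such a match cannot show that genes vary together. *Ntrk3* had no close match, with *Erbb3* (0.94) and *Nes* (0.95) as the nearest.

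Ligands of TrkB and TrkC were measured in the same libraries. *Bdnf*, the TrkB ligand, had 120 and 65 counts in M7 and M8 and 14 and 6 in M9 and M10. Both KO-labelled libraries were far below the WT-labelled ones, and *Bdnf* fell by 2.78 on the log2 scale (SE 0.618, adjusted p = 0.0153). The call was lost without M7 (adjusted p = 0.203) and without M8 (0.0697), as well as with the fibroblast scaling (0.0589). *Ntf3*, which encodes neurotrophin-3, was 8.05 and 11.1 CPM in M7 and M8 and 5.87 and 7.73 CPM in M9 and M10, with a log2 fold change of -0.49 (adjusted p = 0.250) that passed with library size only (-1.03, adjusted p = 0.0334). *Ntf5*, which encodes neurotrophin-4, was 7.57 and 5.37 CPM under the WT label and 4.66 and 4.14 CPM under the KO label (-0.56, adjusted p = 0.243). For these 3 ligands both KO-labelled libraries lay below both WT-labelled ones, as for 37.2% of all genes tested. *Bdnf* alone passed the test, while 16.7% of all genes were called lower. The values of *Ntf3* and *Ntf5* turned under the fibroblast scaling, to 0.58 and 0.52.

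**Figure D3:**
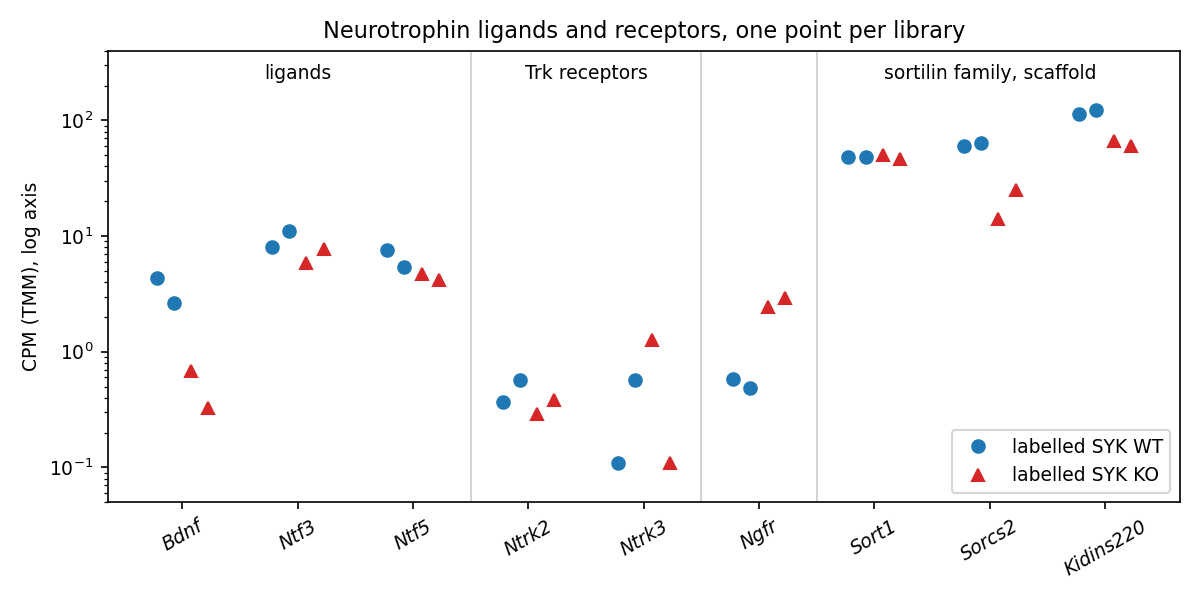
CPM on a log axis for *Bdnf*, *Ntf3* and *Ntf5*, the receptors *Ntrk2* and *Ntrk3*, *Ngfr* and partners of the receptors, 1 point per library (circles labelled SYK WT, triangles labelled SYK KO). *Bdnf* is lower and *Ngfr* is higher in both KO-labelled libraries, while *Ntrk2*, *Ntrk3* and *Sort1* overlap between labels.

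Of the summed counts of *Ngfr*, *Ntrk2* and *Ntrk3*, *Ngfr* took 55.2% in M7 (95% exact binomial interval 35.7 to 73.6) and 30% in M8 (16.6 to 46.5), against 61.0% (49.6 to 71.6) in M9 and 85.5% (74.2 to 93.1) in M10. The KO-labelled shares were the higher ones, but the intervals of M7 and M9 overlapped widely, so that those libraries are not separated at this depth. These shares do not depend on the scaling of libraries, and with 2 libraries per label the smallest p of an exact two-sided permutation test is 0.333. Among the co-receptors, *Sorcs2*, a sortilin family receptor for pro-neurotrophins, fell from 62.4 ± 2.59 to 19.6 ± 7.65 CPM (SD, n = 2), which is a log2 change of -1.67 (adjusted p = 0.00585) that was -0.63 under the fibroblast scaling (adjusted p = 0.0716). *Kidins220*, a scaffold of Trk receptors and p75NTR, fell by 0.89 (adjusted p = 0.00690), turned to 0.20 under that scaling, and lost its call without M8 (adjusted p = 0.0805). *Sort1* (sortilin) was 48.5 ± 0.124 and 48.2 ± 2.56 CPM (SD, n = 2), a difference within the spread (adjusted p = 0.969). *Rtn4r* and *Lingo1*, partners of p75NTR in the Nogo receptor complex, had 11 to 25 and 5 to 22 counts and did not pass the test (log2 fold changes 0.12 and -0.55).

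Of 18 adaptors and effectors of these receptors, 17 were tested, 2 rose (22.7% of all genes did) and 7 fell (16.7% of all genes), with a median log2 fold change of -0.33. The most abundant were *Arhgdia*, a GDP dissociation inhibitor of small GTPases, with 1.15 (adjusted p = 0.00652), *Maged1*, which binds p75NTR, with -0.45 (adjusted p = 0.0871), and the adaptor *Grb2* with 0.14 (adjusted p = 0.559). *Arhgdia* turned to -1.57 under the macrophage scaling and lost its call with library size only (adjusted p = 0.0682) and without M8 (0.0781). *Maged1* passed with library size only (-0.99, adjusted p = 0.00880), without mitochondrial and rRNA-like genes (0.0469), in the DESeq2 Wald test (0.0294) and without M10 (0.0360). Over the 65 listed pathway and cytoskeleton genes other than the members, 56 were tested, 15 rose and 14 fell, beside 22.7% and 16.7% of all genes, and the median log2 fold change was 0.01. Scaled to the macrophage markers 0 rose and 54 fell, and scaled to the fibroblast markers 32 rose and 0 fell.

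*Tubb3* (chromosome 8, 123411424 to 123422015) was the next most abundant member after *Uchl1* and did not pass the test. It had 151, 101, 83 and 107 counts in M7 to M10, or 5.50, 4.11, 4.03 and 5.82 CPM. The labels overlapped fully, and the ratio of KO-labelled to WT-labelled libraries was 1.01 (95% counting interval 0.829 to 1.22). The log2 fold change was 0.03 (SE 0.379, adjusted p = 0.951). It passed the test in opposite directions with the marker scalings, at 1.08 for fibroblast (adjusted p = 0.0454) and -2.60 for macrophage markers (0.000458). Its nearest patterns were those of *Stmn4* (0.08), a neural stathmin, and *Syt1* (0.15), a synaptic vesicle protein. As the best of 111 genes over 4 libraries, they cannot show that the genes vary together. Of 10 other tubulins 6 rose (22.7% of all genes did) and 0 fell (16.7% of all genes), and their median log2 fold change was 0.69. *Tubb2a* rose most among the tubulins, from 8.60 ± 0.202 to 59.1 ± 15.1 CPM (SD, n = 2), which is a log2 change of 2.78 (SE 0.230, adjusted p = 0.000891) that was -0.0007 when scaled to the macrophage markers. *Tubb6*, *Tuba1b*, *Tuba1c*, *Tuba4a* and *Tubb5* rose by 0.63 to 0.94, and every one of these 5 was negative under the macrophage scaling, at -2.09 to -1.78. All 5 calls were lost with library size only (adjusted p = 0.193 to 0.750), without M7 (0.0527 to 0.183) and without M8 (0.144 to 0.354). *Tubb5*, at an adjusted p of 0.0486, was also lost with DESeq2 size factors (0.0704), without mitochondrial and rRNA-like genes (0.0513), without the filter (0.0549), with at least 10 counts in every library (0.0629) and without M9 (0.0745). *Tubb2b*, *Tubb4a*, *Tubb4b* and *Tuba1a* did not pass the test, with values of -0.05, 0.08, 0.44 and -0.38, although *Tubb4b* passed without M10 (adjusted p = 0.00836) and *Tuba1a* with library size only (-0.91, adjusted p = 0.0129). *Tubb3* made up 0.498% and 0.420% of beta-tubulin counts in M7 and M8, and 0.239% and 0.373% in M9 and M10, while *Tubb2a* made up 0.791% and 0.866%, then 4.13% and 3.10%. Of the 31-base words in *Tubb3* transcripts, 3.21% also occur in transcripts of other genes, most of them in *Tubb6*, so most of its sequence is its own.

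**Figure D4:**
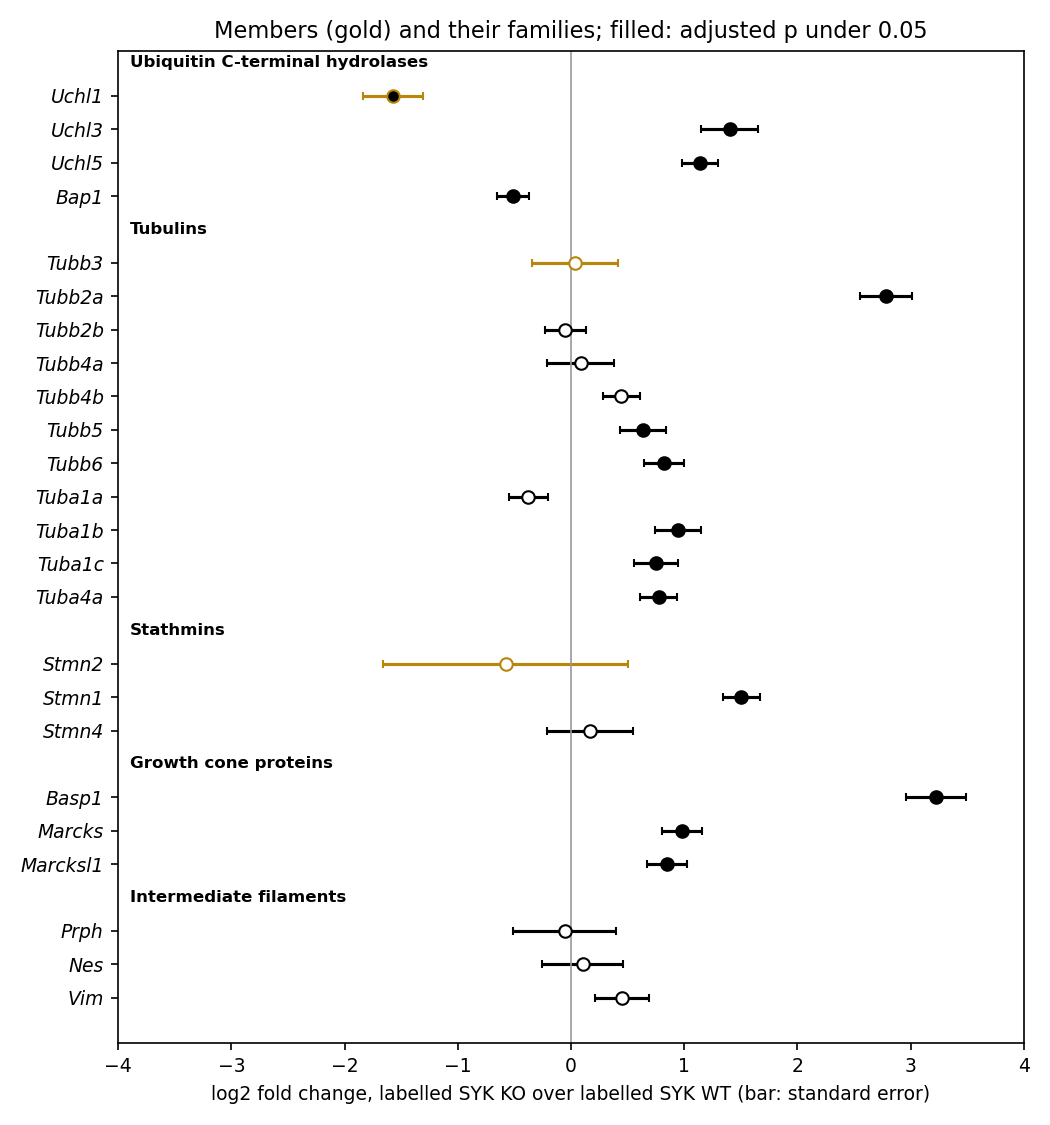
Log2 fold changes of KO-labelled over WT-labelled libraries with their standard errors (bars) for the tested members (gold) and their families, filled where the adjusted p is under 0.05. *Uchl1* lies at -1.57 and its relatives *Uchl3* and *Uchl5* at 1.401 and 1.14, and *Tubb3* lies at 0.03 beside *Tubb2a* at 2.78.

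*Stmn2* (chromosome 3, 8509360 to 8561606) had 15 and 14 counts in M7 and M8, 1 count in M9 and 13 in M10. Only M9 was low, at or under the floor, and M10 was at the level of the WT-labelled libraries. The log2 fold change of -0.58 had a standard error of 1.08 (adjusted p = 0.701), and it was -3.38 (adjusted p = 0.0398) without M10, 0.25 (adjusted p = 0.814) without M9 and -3.08 (adjusted p = 0.0159) with the macrophage scaling. *Stmn1*, the stathmin of dividing cells, rose from 79.4 ± 6.91 to 225 ± 8.003 CPM (SD, n = 2), which is a log2 change of 1.51 (adjusted p = 0.00163), and turned to -1.21 under the macrophage scaling. *Stmn4* had a value of 0.17 (adjusted p = 0.754). *Stmn2* was 0.601% and 0.717% of stathmin counts in M7 and M8, and 0.0206% and 0.311% in M9 and M10. The nearest patterns to *Stmn2* were *Lingo1* (0.39) and *Cspg4* (0.40), a pericyte and glial proteoglycan. At 1 to 15 counts of *Stmn2* in a library, these matches cannot show that the genes vary together.

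*Gap43* (chromosome 16, 42248442 to 42340651) had 18 and 8 counts under the WT label and 2 in each KO-labelled library. Both KO-labelled libraries were at or under the floor, and the WT-labelled level was 4.87 times theirs (95% counting interval 1.69 to 19.2). It was below the expression filter. Without the filter its log2 fold change was -2.22 and did not pass the test (adjusted p = 0.259), and DESeq2 gave -2.30 (adjusted p = 0.311). The other growth cone proteins rose in all 3 cases, against 22.7% of all genes. *Basp1*, a relative of *Gap43* in function, rose from 46.1 ± 2.61 to 431 ± 138 CPM (SD, n = 2), which is a log2 change of 3.22 (SE 0.267, adjusted p = 0.000894), which was 0.43 (adjusted p = 0.440) under the macrophage scaling. *Marcks* and *Marcksl1*, actin-binding substrates of protein kinase C, rose by 0.98 and 0.85 (adjusted p = 0.00782 and 0.0116) and turned to -1.76 and -1.88 under that scaling. Both calls were lost with library size only (adjusted p = 0.127 and 0.254), without M7 (0.0657 and 0.0642) and without M8 (0.0869 and 0.161).

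The neurofilament genes lie side by side on chromosome 14, *Nefl* at 68083863 to 68089095 and *Nefm* at 68082590 to 68124846 on the opposite strand. *Nefl* had 0 counts in M7, M8 and M9 and 2 in M10, and *Nefm* had 0 in every library, which allows up to 0.109 to 0.163 CPM. No statement on a difference can be made for either. Their annotated exons overlap by 1108 bases, 32.8% of those of *Nefl* and 19.2% of those of *Nefm*. Of the other intermediate filaments, *Nefh* had 3 to 10 counts and *Ina* at most 1. *Prph*, the filament of peripheral neurons, ranged from 135 counts (M9) to 346 (M8) (log2 fold change -0.05, adjusted p = 0.935, and -0.91 with 0.0102 without M10). *Nes*, found in progenitor cells, and *Vim*, found in mesenchymal and myeloid cells, had values of 0.10 and 0.45 and did not pass the test (adjusted p = 0.841 and 0.179), while *Nes* passed at 0.53 without M10 (adjusted p = 0.0451).

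Markers of the cells that normally hold these genes were checked in the same libraries. Those named here for being at or near 0 were chosen after their values were seen. Of 12 neuroblastoma and sympathoadrenal genes, *Th* and *Dbh*, enzymes of catecholamine synthesis, had 0 counts in every library, and the list summed to 292 to 329 CPM in the WT-labelled and 216 to 339 CPM in the KO-labelled libraries, most of it *Hand2*, with 2 of the 5 tested genes higher. Of 10 Schwann cell genes, *Sox10*, the defining transcription factor, had 7, 4, 0 and 0 counts, and *Cdh19* and *Foxd3* had at most 2. The list summed to 95.4 to 111 and 226 to 383 CPM, most of it *Pmp22* (76.6, 64.2, 309 and 158 CPM in M7 to M10). Of the 6 tested genes 3 rose, against 22.7% of all genes. These were *Pmp22* (log2 fold change 1.73), *Cnp* (1.03) and *Mbp* (3.22). Of 8 pan-neuronal genes, *Elavl4* was at 0 in every library and *Snap25* had at most 1 count. *Celf4* had 376, 286, 216 and 615 counts in M7 to M10, *Syt1* 164, 94, 68 and 108, and *Elavl2* 71, 124, 49 and 80. In this list 0 of the 4 tested genes passed, against 39.4% of all genes, and sums were 21.9 to 24.3 and 17.99 to 45.3 CPM. Of 8 endothelial genes 2 fell (median log2 fold change -0.56), against 16.7% of all genes. Their part in the levels of the members was not tested.

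Levels were compared between members per kilobase of annotated exons. The length is the union of exons over all transcripts, 30.2 kilobases for *Ntrk3* and 19.3 for *Ntrk2* but 1.52 to 5.78 for the other members. The low rank of the 2 Trk genes depends on this long divisor. In M7 and M8, *Ntrk2* had 10 and 14 counts and *Ngfr* 16 and 12. In the WT-labelled libraries the order was *Uchl1* (145 ± 29.4 CPM per kilobase, SD, n = 2), *Tubb3* (2.57 ± 0.528), *Gap43* (0.322 ± 0.153), *Ngfr* (0.155 ± 0.0195), *Stmn2* (0.0995 ± 0.00288), *Ntrk2* (0.0242 ± 0.00751) and *Ntrk3* (0.0112 ± 0.0108). The difference of *Ntrk2* from *Ntrk3*, and of *Gap43* from *Ngfr*, was only slightly above the larger SD of the pair, though their libraries did not overlap. In the KO-labelled libraries *Uchl1* (48.7 ± 15.3), *Tubb3* (2.64 ± 0.681) and *Ngfr* (0.770 ± 0.0944) kept separate levels. Below them *Gap43*, *Stmn2*, *Ntrk3* and *Ntrk2*, at 0.0174 to 0.0676 CPM per kilobase on average, overlapped their neighbours in the order. *Ngfr* thus stood below *Gap43* under the WT label and above it under the KO label.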

How the data were processed

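The authors deposited raw counts (whole numbers, no normalization) for 54532 Ensembl genes in 4 libraries. Per the labels these are paired 150-base reads from polyA libraries; the study's methods describe single reads in triplicate. Alignment to mm10 was by STAR and quantification by Salmon (versions 2.6.1d and 1.4.0 in the submitters' processing notes); how whole counts were made from Salmon's estimates is not given in the sources used here. Libraries were grouped by the genotype label.

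Symbols, positions and exon lengths (union of exons) came from GENCODE M21 on GRCm38, which matched 54495 genes. In R 4.3.3, genes passed filterByExpr, libraries were normalized by TMM, and labels were compared with edgeR 4.0.16 (glmQLFit, glmQLFTest) with Benjamini-Hochberg adjustment over 16451 genes and a threshold of 0.05. Total counts were 20755886 to 23518045, so 3 counts were 0.109 to 0.163 CPM. Counts of libraries with one label differed by more than sampling noise (chi-square per degree of freedom 36.8 and 128). Counting intervals are exact binomial at 95%. Likeness is the root mean square difference of centred log2 CPM (prior count 2). It carries no interval for counting error, which is large for members with few counts. Named genes are the members, *Syk*, the ligands, receptors and families of the members with at least 10 counts in a library or past the test, the 3 most expressed genes of the other pathway lists, and the 2 listed genes nearest to each tested member. The same rule covers the 3 most expressed genes of each marker list, which are given as list sums and in part by name. Some listed genes that the rule covers are not reported here. Genes named for being at or near 0 were chosen after their values were seen. The members, lists and tests were chosen with earlier results of these data known. Alternatives were other normalizations and filters, DESeq2 1.42.0, other thresholds and each library left out. The tests were also run on simulated counts with a common dispersion and few changed genes. That setting lacks the broad shift between labels seen here, so it lends no support to the calls.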

Additional observations from a re-analysis of the deposited data

How the results depend on the processing

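No paired analysis was possible because the labels give the libraries of both genotypes no shared replicate number. Counts set what can be seen: 6 of the 9 members were tested, and *Ngfr*, *Ntrk2*, *Ntrk3*, *Stmn2* and *Gap43* had at most 53 counts in a library. The zero of every log2 fold change depends on the scaling. The median over all genes was 0.02 with TMM, -0.03 with DESeq2 size factors, -0.52 with library size only, -2.70 with macrophage marker scaling and 1.10 with fibroblast marker scaling. The members past the test were 1 higher and 1 lower, 0 higher and 4 lower with macrophage scaling, and 2 higher and 0 lower with fibroblast scaling. With each library left out in turn, 0 to 1 members were higher and 1 to 2 lower. Over all genes, 3729 were higher and 2747 lower. Library size only gave 1678 and 5407, macrophage scaling 136 and 14200, and fibroblast scaling 9153 and 523. A further cutoff of 1 on the size of the log2 fold change gave 2426 and 1849, and leaving out a library gave 1478 to 5010 and 807 to 4745. Of the 65 other listed genes, 15 were higher and 14 lower. The numbers were 6 and 22 with library size only, 0 and 54 with macrophage scaling, 32 and 0 with fibroblast scaling, 7 and 7 with that cutoff, and 5 to 20 and 3 to 20 with a library left out. Macrophage markers were higher in 10 of 10 genes and in 0 with their own scaling, and fibroblast markers were lower in 5 of 8, in 8 with macrophage scaling and in 0 with their own. The call of *Uchl1* held under every alternative except fibroblast scaling (adjusted p = 0.158). The call of *Ngfr* was lost with macrophage scaling (adjusted p = 0.741) and without M7 or M8 (0.170 and 0.231), and its log2 fold change ran from -0.37 to 3.36 over 14 alternatives. Log2 fold changes turned direction with macrophage scaling for *Ngfr* (-0.37), *Ntrk3* (-2.06), *Tubb3* (-2.60), *Rtn4r* (-2.58), *Stmn1* (-1.21), *Stmn4* (-2.45), *Tubb2a* (-0.0007), *Tubb4a* (-2.55), *Tubb4b* (-2.31), *Tubb5* (-2.09), *Tubb6* (-1.89), *Tuba1b* (-1.78), *Tuba1c* (-1.995), *Tuba4a* (-1.95), *Nes* (-2.72), *Vim* (-2.30), *Marcks* (-1.76), *Marcksl1* (-1.88), *Uchl3* (-1.32), *Uchl5* (-1.59), *Arhgdia* (-1.57), *Grb2* (-2.61) and *Mapt* (-2.42). With fibroblast scaling they turned for *Ntrk2* (0.60), *Stmn2* (0.40), *Ntf3* (0.58), *Ntf5* (0.52), *Sort1* (1.08), *Lingo1* (0.46), *Kidins220* (0.20), *Tubb2b* (1.03), *Tuba1a* (0.70), *Prph* (0.97), *Bap1* (0.57), *Maged1* (0.63), *Map1a* (0.15), *Dclk1* (0.11), *Lum* (0.46), *Erbb3* (0.97), *Cspg4* (0.55) and *Syt1* (0.93). With library size only they turned for *Tubb3* (-0.52), *Rtn4r* (-0.42), *Stmn4* (-0.38), *Tubb4a* (-0.47), *Tubb4b* (-0.0838), *Nes* (-0.41), *Vim* (-0.0768), *Grb2* (-0.39) and *Mapt* (-0.41). *Tubb3* also turned with DESeq2 size factors (-0.0211), without mitochondrial and rRNA-like genes (-0.0529), with at least 10 counts in every library (-0.0318) and in the DESeq2 Wald test (-0.0213), and *Tubb4a* without mitochondrial and rRNA-like genes (-0.0024). Leaving out 1 library turned *Ntrk3* (-1.66 to 2.59), *Stmn2* (-3.38 to 0.25), *Tubb3* (-0.24 to 0.26), *Sort1* (-0.15 to 0.0577), *Rtn4r* (-0.46 to 0.76), *Lingo1* (-1.71 to 0.0166), *Stmn4* (-0.15 to 0.44), *Tubb2b* (-0.22 to 0.13), *Tubb4a* (-0.36 to 0.34), *Prph* (-0.91 to 0.40), *Nes* (-0.58 to 0.53), *Grb2* (-0.0783 to 0.27), *Mapt* (-0.76 to 0.63), *Erbb3* (-0.80 to 0.24), *Cspg4* (-1.41 to 0.0252) and *Syt1* (-0.56 to 0.26). Beyond the scalings, whose construction sets the zero, the cause was not tested.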

Other observations

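Microtubule-associated proteins and collapsin response mediators, which stabilize axons or relay guidance cues, were measured for 11 genes other than the members. Of these, 8 were tested, 1 rose (22.7% of all genes did) and 2 fell (16.7% of all genes), with a median log2 fold change of -0.45. The neuronal genes *Dcx* and *Dpysl4* had 0 counts in every library. *Mapt*, which encodes tau, had 2574, 2273, 1122 and 2815 counts in M7 to M10, so that the lowest and the highest library carried the same label, and its log2 fold change was 0.16 (adjusted p = 0.797), or 0.63 (adjusted p = 0.00362) without M9. *Map1a* fell by 0.90 on the log2 scale (adjusted p = 0.0196) and *Dclk1*, a doublecortin-like kinase, by 0.99 (adjusted p = 0.00501), and with fibroblast scaling the values were 0.15 and 0.11. Without M8 both calls were lost (adjusted p = 0.0725 and 0.0524), and that of *Map1a* also without M7 (0.0806). *Dpysl2*, chosen here after its value was seen as the 1 gene of the list that rose, had 515, 454, 1033 and 930 counts and a log2 fold change of 1.44 (adjusted p = 0.00168), which was -1.29 with macrophage scaling.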
